A study of Mus musculus with 4 samples.

Results

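The 7 genes Ypel3, Ypel5, Btg1, Btg2, Btg3, Tob1 and Tob2, of 27998 genes counted, were followed by their gene symbols through bone marrow LSK cells of control and Nup358 knockout (KO) mice. They were selected because Ypel3 and Btg2 fell in the KO libraries of these same data, so the KO difference of each gene is given below as a description, without a test. Only the change of that difference between groups of cells was tested, and that test is not independent of the selection. Counts of these genes that pass a threshold in the KO contrast are given for scale only. Their levels by cell type and by cycle state were not the values used for that selection and were tested. These tests are not fully independent of it, since genes and tests were chosen with earlier results of these data known. The share of non-cycling cells was also lower in both KO libraries. LSK cells carry no lineage markers and express Sca1 and cKit, and they hold the blood stem cells and the earliest progenitors.

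Single-cell RNA-seq counted transcripts as UMIs (molecular tags that mark each captured RNA once) in 4 libraries, 2 per genotype, each pooled from 3 mice of 9 to 12 weeks. Control mice were Nup358 fl/fl, called wild-type in the labels, and KO mice were Nup358 fl/fl with R26-CreERT2, a Cre that tamoxifen switches on in all tissues. Both genotypes received tamoxifen on 3 consecutive days. Both therefore carry the floxed allele, the KO cells come from animals that lose Nup358 outside the marrow too, and a library is a pool and not 1 animal. Nup358, a protein of the nuclear pore's cytoplasmic filaments, is encoded by Ranbp2. Its deleted exon 2 lies far from the counted 3′ end, so its counts do not check the genotype (127 and 101 CPM for control and 124 and 126 CPM for KO, where CPM is a gene's UMIs per 1000000 UMIs of the summed cells).

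Btg and Tob proteins form one family that restrains proliferation. They bind the CCR4-NOT deadenylase, which shortens the poly(A) tails of mRNAs, and Btg1 and Btg2 also bind the arginine methyltransferase Prmt1. Ypel proteins are small, strongly conserved zinc-binding proteins found near the centrosome and mitotic spindle, and YPEL3 was described as a p53 target that arrests growth. In blood, Btg1 and Btg2 are known for keeping lymphocytes quiescent.

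The libraries were not fully separate. In all, 6680 barcode sequences were found in several libraries, 1138 of them in all 4, and a barcode was left out as a copy where another library held the same sequence with 3 times the UMIs or more. This removed 10936 of 25242 barcodes and, with the filters on genes and mitochondrial reads, kept 7830 and 1200 control cells and 1589 and 3422 KO cells. The copies held 2.01% and 24.7% of the UMIs of the control libraries and 8.61% and 1.61% of those of the KO libraries. The kept cells held 18846887 to 59033602 UMIs per library, with a median of 6251 UMIs per cell in control replicate 1 and 13176 to 17707 UMIs in the others. The sorting markers were present, Kit at 73.3 to 103 CPM and Ly6a (Sca1) at 133 to 317 CPM. The summed level of 7 mature B cell markers was 109 and 111 CPM in control and 432 and 425 CPM in KO, and the part of such cells in the KO values over all LSK cells was not tested. For this reason each KO value is also given for the cells outside every lineage gate, where the same markers summed to 91.6 and 53.1 CPM in control and 111 and 132 CPM in KO.

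Promoters of Btg2, Ypel3 and Btg1 are shown first, as 250 bases up to the RefSeq start site (GRCm38.p6, 5′ to 3′ on the strand of the gene), since the levels of these 3 genes are compared most closely below. Capitals mark matches to TGACGTCA (the cAMP response element), GTAAACA (a forkhead site), CCAAT and TATAAA, searched on both strands. The Btg2 promoter is chr1:134079156-134079405 (minus strand), the Ypel3 promoter chr7:126776713-126776962 (plus strand) and the Btg1 promoter chr10:96616751-96617000 (plus strand).
Btg2: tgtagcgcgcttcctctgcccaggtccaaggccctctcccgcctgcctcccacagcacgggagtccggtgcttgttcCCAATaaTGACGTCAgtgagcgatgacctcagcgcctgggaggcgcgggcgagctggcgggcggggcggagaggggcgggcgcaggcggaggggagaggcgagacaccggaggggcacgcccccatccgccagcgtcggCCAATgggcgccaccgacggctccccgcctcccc
Ypel3: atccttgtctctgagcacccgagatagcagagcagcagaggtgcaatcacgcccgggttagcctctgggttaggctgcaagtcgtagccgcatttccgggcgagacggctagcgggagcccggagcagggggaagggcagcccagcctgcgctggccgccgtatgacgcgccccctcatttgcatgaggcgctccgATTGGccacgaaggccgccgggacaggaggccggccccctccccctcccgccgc
Btg1: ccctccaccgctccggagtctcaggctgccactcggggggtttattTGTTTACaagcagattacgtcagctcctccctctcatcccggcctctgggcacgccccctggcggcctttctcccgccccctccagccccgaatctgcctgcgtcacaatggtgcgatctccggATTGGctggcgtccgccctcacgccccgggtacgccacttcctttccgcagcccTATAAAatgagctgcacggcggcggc
The Btg2 promoter held a TGACGTCA match 166 to 159 bases before the start, a motif in 1.55% of 32851 promoters of this length, and CCAAT at 173 to 169 and at 34 to 30 bases. Ypel3 held CCAAT on the reverse strand at 54 to 50 bases. Btg1 held a forkhead match on the reverse strand at 204 to 198 bases, a motif in 3.17% of promoters, and a TATAAA match at 26 to 21 bases, a motif in 12.4%. CCAAT was found for 6 of the 7 genes and in 33.8% of all promoters. A match describes letters only, and no binding was measured here. In GRCm38, Ypel3 (ENSMUSG00000042675) lies at chr7:126776955-126780514, Btg2 (ENSMUSG00000020423) at chr1:134075170-134079120 and Btg1 (ENSMUSG00000036478) at chr10:96617006-96622809.

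Ypel3 and Btg2 were lower in both KO libraries than in both control libraries. Over all LSK cells, Ypel3 was at 109 and 132 CPM in control and 35.7 and 37.5 CPM in KO, a log2 fold change of -1.76 ± 0.17 (SE, n = 2 libraries per genotype), or 3.39-fold less. Btg2, an immediate early and p53-responsive member of its family, was at 82.0 and 143 CPM in control and 34.9 and 38.8 CPM in KO, a log2 fold change of -1.65 ± 0.27. The KO libraries lay close together for both genes, and the control libraries spread more for Btg2 than for Ypel3. In sums over all LSK cells, fewer cells of a type and less RNA per cell cannot be told apart.

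**Figure D1:**
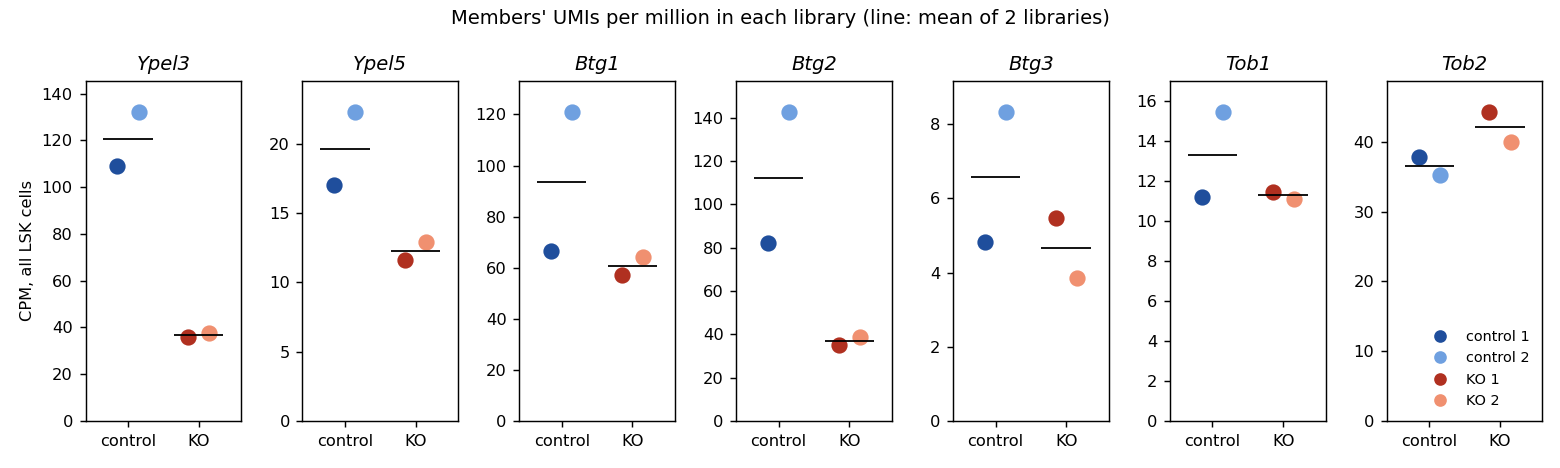
CPM (y axis, linear from 0) of each of the 7 genes in the 2 control and 2 KO libraries, 1 point per library, with a line at the mean of 2 libraries. Ypel3 and Btg2 sat at 109 to 132 and 82.0 to 143 CPM in control and at 34.9 to 38.8 CPM for both in KO, while Tob2 stayed between 35.3 and 44.3 CPM.

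The other members differed less. Btg1, a close relative of Btg2 expressed in resting lymphocytes, was at 66.4 and 121 CPM in control and 57.2 and 64.2 CPM in KO (log2 fold change -0.67 ± 0.28), and control replicate 2 set most of this gap, since the value was -0.15 without that library. Btg1 was also 586 to 807 CPM in the pooled mature B-like, T or NK-like and plasmacytoid dendritic-like cells, few as these were (31 to 40 cells), against 65.2 CPM in cells outside every gate. Ypel5, the most conserved Ypel gene and a subunit of the GID/CTLH ubiquitin ligase, was at 17.0 and 22.3 CPM in control and 11.6 and 12.9 CPM in KO (-0.72 ± 0.19). The libraries of the genotypes did not overlap for Btg1 or Ypel5, but for Btg1 the gap was from 64.2 to 66.4 CPM.

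Tob1, a regulator that keeps T cells quiescent, was at 11.2 and 15.4 CPM in control and 11.5 and 11.1 CPM in KO. Tob2, its paralog, was at 37.9 and 35.3 CPM in control and 44.3 and 39.9 CPM in KO. Btg3, the most distant of the Btg genes measured, was at 4.81 and 8.33 CPM in control and 5.47 and 3.86 CPM in KO, on 157 to 284 UMIs per library, and it overlaps Cxadr on the opposite strand. The genotypes overlapped for Tob1 and Btg3, and Tob2 was slightly higher in both KO libraries. By the edgeR quasi-likelihood fit over 13779 genes with Benjamini-Hochberg adjustment, 2 of the 7 genes (Ypel3 and Btg2) passed 0.05 as lower and 0 as higher, against 2.07% and 1.37% of all genes. Both KO libraries lay below both control libraries for 4 of the 7 and above them for 1, against 24.2% and 29.5% of genes of at least 2 CPM. These shares are given for scale only, since the genes were selected on this contrast.

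Without the gated types Ypel3, Btg2, Btg1, Ypel5 and Tob1 had larger differences, and Btg3 and Tob2 smaller ones. In cells outside every lineage gate (4789 and 680 control cells, 1120 and 2348 KO cells), Ypel3 was at 143 and 147 CPM in control and 31.3 and 33.8 CPM in KO, a log2 fold change of -2.13 ± 0.14 or 4.38-fold less. Btg2 was at 104 and 165 CPM in control and 30.4 and 35.4 CPM in KO (-2.01 ± 0.25). Btg1 was at 80.3 and 117 CPM in control and 45.9 and 54.4 CPM in KO (-0.95 ± 0.22). For Ypel3 and Btg2 the gap between genotypes was wider than the spread of the control libraries, and for Btg1 it was narrower. Ypel5 was at 18.5 and 21.9 CPM against 10.6 and 11.5 CPM (-0.83 ± 0.17), Tob1 at 13.2 and 16.6 CPM against 11.6 and 11.6 CPM (-0.32 ± 0.18), and Tob2 at 42.7 and 37.3 CPM against 47.0 and 40.1 CPM (0.14 ± 0.15). Btg3 overlapped between genotypes, at 4.93 and 7.33 CPM in control and 5.02 and 3.73 CPM in KO (-0.43 ± 0.28). Here 3 of the 7 (Ypel3, Btg2 and Ypel5) passed the same threshold as lower and 0 as higher, against 3.51% and 1.86% of 13029 genes. In cells of at least 5000 UMIs, 1 of the 7 (Ypel3) passed as lower, both here and over all LSK cells. Among all genes, 46 of 12743 here and 95 of 13631 over all LSK cells passed as lower in such cells. Of the 7, 5 had both KO libraries below both control libraries and 0 above, against 30.3% and 26.2% of genes of at least 2 CPM. As over all LSK cells, these counts and shares are for scale only, since the genes were selected on this contrast.

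The genes were next compared among progenitor types within each library, a contrast that the selection did not use directly. Cells were gated by markers: stem-like (Hlf, Mecom, Procr), lymphoid-primed-like (Dntt, Flt3, Il7r), megakaryocyte-like (Pf4, Gp1bb), erythroid-like (Klf1, Car1) and neutrophil-like (Elane, Prtn3, Ctsg). The thresholds of the gates were set on these counts, so each gate is a range of a score and not a sorted population. Of the stem-like cells, 99 of 417 and 48 of 156 in control and 34 of 111 and 105 of 219 in KO scored within 25% above the threshold, and 75 to 164 further cells per library lay within 25% below it. Of the neutrophil-like cells, 254 of 1773 and 18 of 139 in control and 24 of 46 and 20 of 43 in KO scored within 25% above theirs. Megakaryocyte-like cells numbered 177 and 23 in control and 22 and 99 in KO. Sums of at least 20 cells were compared with the cells outside every gate, with library as a block. P values rest on the spread left between these sums once library differences are fitted, and all sums come from the same 4 libraries.

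Ypel3 had the same order of types in all 4 libraries, from stem-like through lymphoid-primed-like, outside every gate and megakaryocyte-like down to the erythroid-like and neutrophil-like cells, which changed places between libraries. Stem-like cells held 256 and 267 CPM in control and 78.4 and 74.1 CPM in KO. Relative to cells outside every gate this was a log2 fold change of 0.94 ± 0.09 (adjusted p = 1.95e-08, edgeR quasi-likelihood, Benjamini-Hochberg), higher in 4 of 4 libraries. Lymphoid-primed-like cells held 196 and 156 CPM in control and 52.4 and 56.8 CPM in KO (0.51 ± 0.09, adjusted p = 2.3e-04). Both types exceeded the cells outside every gate in every library, although by little for lymphoid-primed-like cells of control replicate 2. Megakaryocyte-like cells were lower at 106, 72.5, 27.3 and 25.3 CPM (-0.52 ± 0.13, adjusted p = 0.0039). Erythroid-like cells, with too few cells in control replicate 2, held 50.9 CPM in control and 14.5 and 16.7 CPM in KO (-1.27 ± 0.16, adjusted p = 8.3e-07). Neutrophil-like cells held 52.3 and 51.0 CPM in control and 14.9 and 11.1 CPM in KO (-1.25 ± 0.10, adjusted p = 2.0e-10).

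Most of the family was higher in stem-like cells. Ypel3, Ypel5, Btg1, Btg2, Btg3 and Tob1, 6 of the 7 genes, rose there and 0 fell, against 21.1% and 17.0% of all 10045 genes tested. Btg2 was at 164 and 301 CPM in control and 40.9 and 41.1 CPM in KO (0.58 ± 0.14 against cells outside every gate, adjusted p = 0.0015). Btg1 was at 136 and 231 CPM in control and 63.4 and 77.3 CPM in KO (0.64 ± 0.10, adjusted p = 1.2e-05). Ypel5 (0.79 ± 0.15), Tob1 (0.65 ± 0.16) and Btg3 (0.72 ± 0.24) also passed, each in 4 of 4 libraries, Btg3 with an adjusted p of 0.0188 that became 0.0931 and 0.157 without control replicate 1 or 2. Tob2 was at 54.4 and 45.8 CPM in control and 36.8 and 45.2 CPM in KO, with a log2 difference of 0.05 that was negative under other settings. With S and G2/M cells left out, Ypel3 (0.61, adjusted p = 0.0016), Btg1 (0.37, adjusted p = 0.024) and Btg3 (0.92, adjusted p = 0.041) still passed, whereas Btg2 (0.33, adjusted p = 0.074), Tob1 (0.44, adjusted p = 0.115) and Ypel5 (0.26, adjusted p = 0.319) did not. This was 3 of the 7 higher, against 734 of 9311 genes.

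Neutrophil-like cells showed the opposite. Of the 7 genes, 5 fell and 0 rose, against 28.1% and 25.1% of all genes. Btg2 was at 42.9 and 43.9 CPM in control and 12.7 and 20.2 CPM in KO (-1.30 ± 0.15, adjusted p = 1.1e-07), and Btg1 at 39.8 and 63.0 CPM in control and 20.9 and 28.3 CPM in KO (-0.86 ± 0.10, adjusted p = 1.4e-07). Tob1, at 5.0 to 9.0 CPM in these cells and on 12 and 5 UMIs in KO, was lower by a log2 fold change of -0.98 ± 0.16. Ypel5 was lower by -0.43 ± 0.14 (adjusted p = 0.0113). Its call was lost without either control library (adjusted p = 0.053 and 0.114) and with all barcodes (adjusted p = 0.0921). It was also lost with S and G2/M cells left out (-0.41, adjusted p = 0.132), where 4 of the 7 were lower, against 1615 of 9311 genes. Each of the 5 genes was lower in 4 of 4 libraries, while Tob2 (-0.25, adjusted p = 0.082) and Btg3 (0.14, adjusted p = 0.589) did not pass.

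The remaining types moved single genes. In lymphoid-primed-like cells 1 of the 7 (Ypel3) rose and 0 fell, against 7.05% and 6.47% of all genes, and Ypel3 no longer passed with S and G2/M cells left out (0.20, adjusted p = 0.683). In megakaryocyte-like cells 1 rose and 2 fell, against 7.78% and 8.96%. Btg2 was the gene that rose there, at 166 and 193 CPM in control and 50.7 and 70.5 CPM in KO (0.64 ± 0.16, adjusted p = 0.0054). It was higher in 4 of 4 libraries, but missed the threshold with stricter gates (0.73 ± 0.25, adjusted p = 0.0757). Tob2 fell (-0.61 ± 0.18, adjusted p = 0.0169), a call lost without KO replicate 1 (adjusted p = 0.0703) and with stricter gates (adjusted p = 0.132). In erythroid-like cells 2 fell (Ypel3 and Btg2) and 0 rose, against 17.1% and 15.8% of 10045 genes. Btg2 was at 57.7 CPM in control and 27.3 and 22.3 CPM in KO (-0.66 ± 0.23, adjusted p = 0.027), a call lost without control replicate 1 (adjusted p = 0.382). Btg1 was at 61.5 CPM in control and 65.8 and 57.3 CPM in KO in erythroid-like cells, above its level outside every gate in both KO libraries and below it in control replicate 1.

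**Figure D2:**
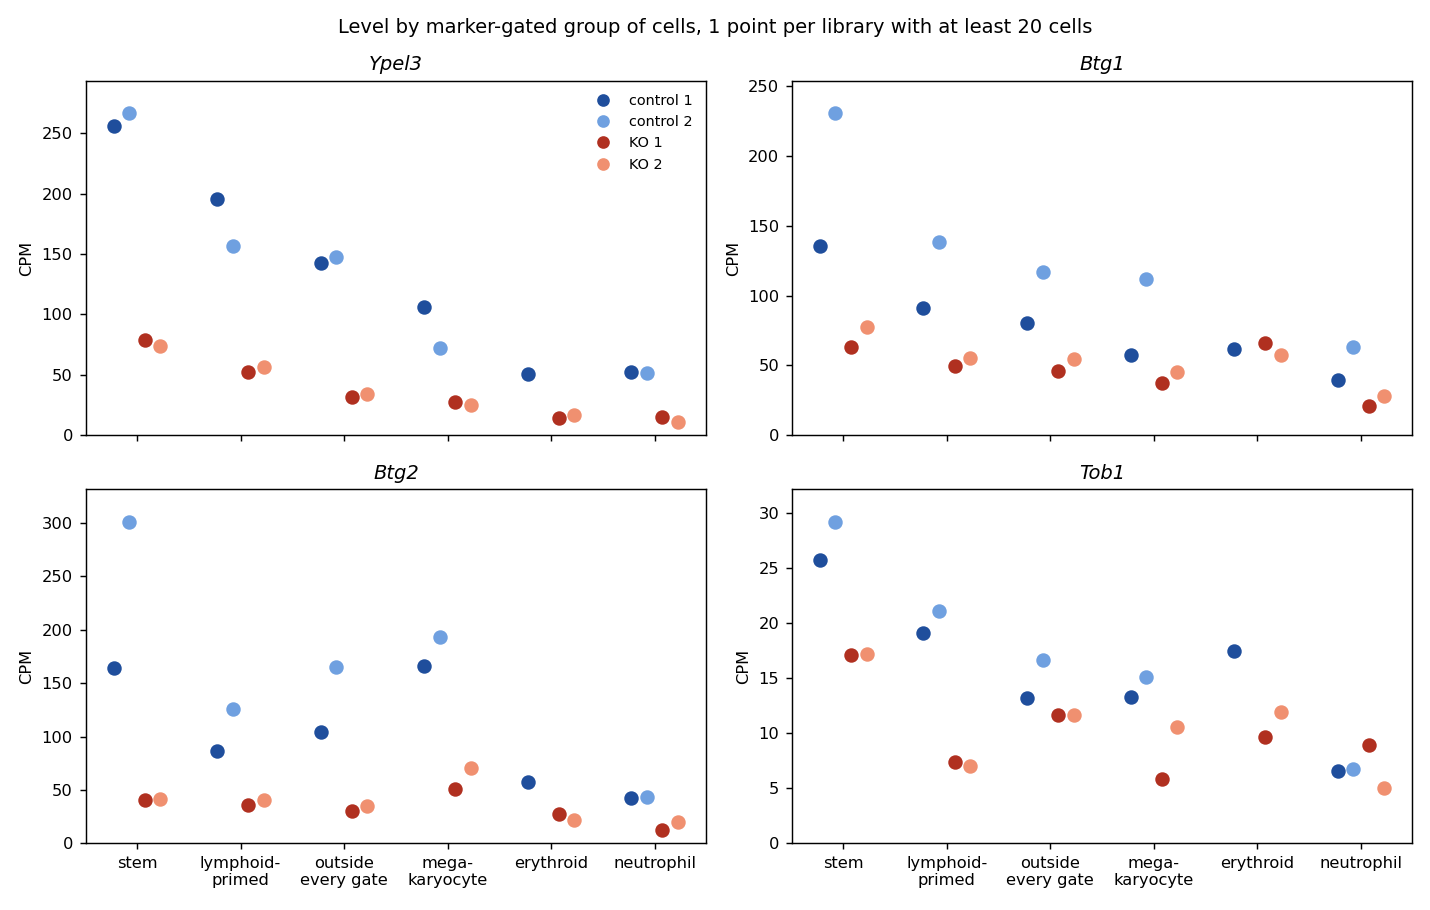
CPM (y axis, linear from 0) of Ypel3, Btg1, Btg2 and Tob1 by marker-gated group of cells (x axis), 1 point per library with at least 20 cells, control and KO in separate colours. Ypel3 ran from 256 and 267 CPM in stem-like control cells to 52.3 and 51.0 CPM in neutrophil-like control cells, and its KO points lay below its control points in each group.

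Cycle state was read from 24 S-phase and 32 G2/M genes, none of them a member. Because these calls use the same UMIs, the share of each state is a property of the counts. Non-cycling calls made up 18.9% and 38.7% of control cells and 13.2% and 9.06% of KO cells (19.5%, 34.9%, 14.4% and 8.83% after thinning each cell to 1000 UMIs). Outside every gate the genotypes lay further apart, at 23.8% and 37.8% of control cells and 5.36% and 2.85% of KO cells. The exact two-sided permutation test gave p = 0.333 for each of these shares, the smallest it can give with 2 libraries per genotype.

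Of the 7 genes, 5 were lower in cycling than in non-cycling cells. Because non-cycling calls were fewer in both KO libraries, this contrast is not fully independent of a selection on the KO difference. In G2/M cells Btg1 (-1.94 ± 0.26, adjusted p = 1.0e-04), Btg2 (-1.48 ± 0.12, adjusted p = 2.3e-06), Ypel3 (-1.46 ± 0.13, adjusted p = 5.0e-06), Ypel5 (-1.24 ± 0.19, adjusted p = 2.1e-04) and Tob1 (-0.98 ± 0.11, adjusted p = 2.8e-05) fell by the edgeR quasi-likelihood test in 4 of 4 libraries. This was 5 lower and 0 higher against 26.2% and 27.1% of 12707 genes. In S cells the same 5 genes fell, from -1.99 ± 0.26 for Btg1 to -1.06 ± 0.11 for Tob1, and 0 rose, against 25.1% and 26.5% of genes. Tob2 (-0.12, adjusted p = 0.504 in G2/M) and Btg3 (-0.29, adjusted p = 0.297) did not pass. After thinning each cell to 1000 UMIs, Tob1 in G2/M cells missed the threshold (-0.78, adjusted p = 0.090).

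The Btg1 value depended on which cells were included. In non-cycling cells of all types Btg1 was at 153 and 205 CPM in control and 313 and 395 CPM in KO, but outside every gate it was at 150 and 180 CPM in control and 101 and 185 CPM in KO. Cells that passed several gates without a clear best one held 58.4 and 101 CPM in control and 768 and 717 CPM in KO. Within cells outside every gate, the G2/M difference was -1.15 ± 0.10 for Btg1 (adjusted p = 2.5e-08), -1.0 ± 0.09 for Btg2 (adjusted p = 9.4e-08), -0.92 ± 0.10 for Ypel3 (adjusted p = 1.0e-06), -0.99 ± 0.18 for Ypel5 and -0.87 ± 0.17 for Tob1. All 5 genes still fell there, at smaller values than over all cells, against 2268 of 12184 genes that fell.

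Ypel3 and Btg2 were lower in KO within each cycle state as well. Among cells outside every gate, non-cycling cells held 254 and 218 CPM of Ypel3 in control and 78.3 and 92.6 CPM in KO, a log2 fold change of -1.49 ± 0.22. In G2/M cells Ypel3 was at 124 and 123 CPM in control and 36.2 and 33.0 CPM in KO (-1.83 ± 0.14). In S cells it was at 113 and 93.3 CPM in control and 23.7 and 32.7 CPM in KO (-1.89 ± 0.18). Non-cycling KO cells did not exceed the S and G2/M cells of the controls for Ypel3, a comparison of values that was not tested. The closest values, 92.6 CPM in KO replicate 2 (35 UMIs) and 93.3 CPM in S cells of control replicate 2, were nearly equal. Btg2 was at 178 and 259 CPM in non-cycling control cells and 62.3 and 71.4 CPM in non-cycling KO cells (-1.75 ± 0.28), and at 88.8 and 125 CPM in G2/M control cells and 28.9 and 33.2 CPM in G2/M KO cells (-1.75 ± 0.21). The non-cycling KO sums were small, with 44 and 35 UMIs of Ypel3 and 35 and 27 UMIs of Btg2 in 60 and 67 cells. Btg1, at -0.26 ± 0.26 in non-cycling and -0.66 ± 0.21 in G2/M cells, overlapped between genotypes in the non-cycling cells. Tob1 was at 21.7 and 21.8 CPM in non-cycling control cells and 28.5 and 26.4 CPM in non-cycling KO cells.

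**Figure D3:**
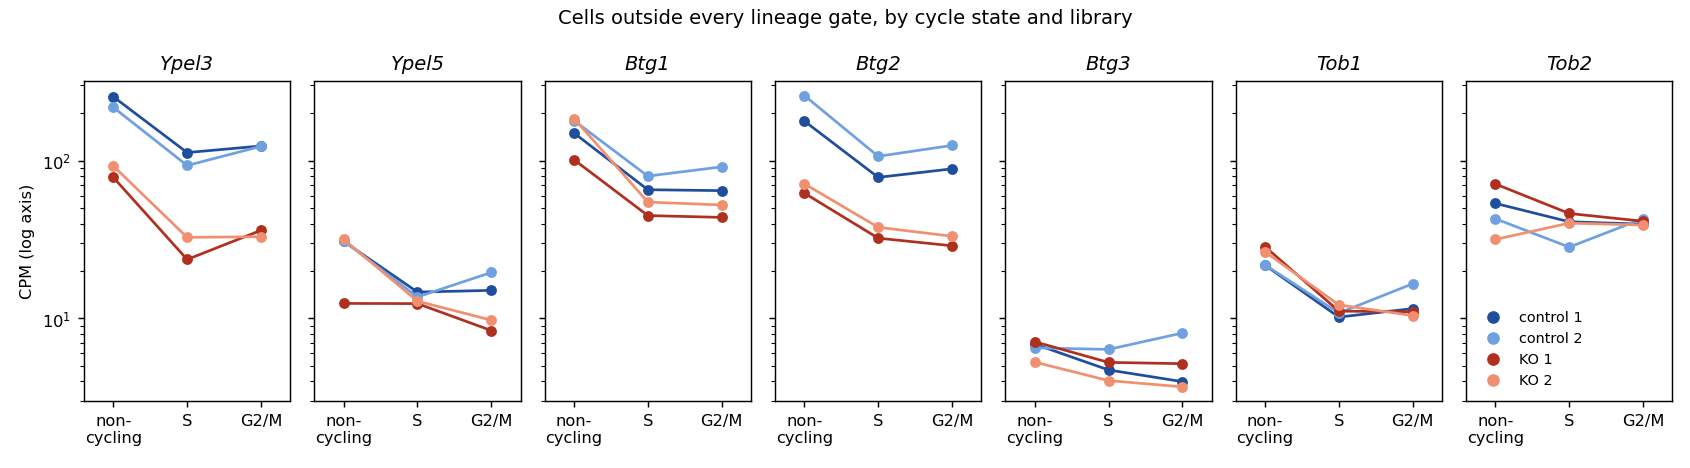
CPM (y axis, log scale) by cycle state (x axis) in cells outside every lineage gate, 1 line per library, control and KO in separate colours. Ypel3 fell from 254 and 218 CPM in non-cycling to 124 and 123 CPM in G2/M control cells, and the KO lines ran below them, from 78.3 and 92.6 to 36.2 and 33.0 CPM.

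Across 9 groups (all LSK cells, the cells outside every gate with their 3 cycle states, and 4 types), both KO libraries lay below both control libraries for Ypel3 in 9, Btg2 in 9, Btg1 in 8, Ypel5 in 7, Tob1 in 5, and Btg3 and Tob2 in 1 each. They lay above for Tob1 in 2, the S and the non-cycling cells outside every gate, and for Tob2 in 2, all LSK cells and neutrophil-like cells. These groups share cells and libraries. For scale, both KO libraries lay below for 24.2% of genes of at least 2 CPM over all LSK cells and 30.3% outside every gate. They lay above for 29.5% and 26.2%. Shares for the other groups were not computed, so the counts there cannot be set against all genes. In non-cycling cells of all types, not among the 9, KO lay below for Ypel3, Btg2 and Tob1 and above for Btg1, Ypel5 and Btg3. For these cells too no share over all genes was computed. The stem-like value of Btg2 was -2.59 ± 0.28, a 6.01-fold lower level, against -1.85 ± 0.19 for Ypel3 and -1.46 ± 0.26 for Btg1. Non-cycling calls made up 48.0% and 73.7% of stem-like cells in control and 20.7% and 22.8% in KO. In the non-cycling stem-like cells alone Btg2 was at 197 and 319 CPM in control and 142 and 40.4 CPM in KO. The KO values rest on 26 and 13 UMIs. Only KO replicate 1 lay nearer to control there than over all its stem-like cells (40.9 CPM), while KO replicate 2 stayed near its 41.1 CPM. A part of cycle state in the stem-like value was not tested. In neutrophil-like cells Ypel3 was at -1.98 ± 0.27 and Btg2 at -1.45 ± 0.28. The KO sums of that type held 46 and 43 cells, with 17 and 20 UMIs of Btg2, and many of the cells scored near the threshold. Tob1 in lymphoid-primed-like cells was at 19.1 and 21.1 CPM in control and 7.4 and 7.1 CPM in KO (-1.50 ± 0.31), a wider gap than the one in cells outside every gate.

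Whether the KO difference itself differed between groups was tested for the 7 genes in 6 contrasts, a test added after the values were seen. It reuses the KO contrast on which the genes were selected. Most cells of that contrast lie outside every gate, the reference of the type contrasts, so the p values are a description. By edgeR's quasi-likelihood test 0 of 42 passed, and 10 had an unadjusted p under 0.05. The shares of all genes passing were 3.71% for non-cycling against G2/M cells, 3.40% for S against G2/M cells, and 3.50%, 1.44%, 0.313% and 0.0285% for neutrophil-like, stem-like, lymphoid-primed-like and megakaryocyte-like cells against cells outside every gate. Nearest to the threshold were Btg2 in S against G2/M cells (a difference of 0.37 ± 0.11, adjusted p = 0.0543) and Btg1 in stem-like cells (-0.42 ± 0.12, adjusted p = 0.079). The larger Tob1 difference in lymphoid-primed-like cells (-1.14 ± 0.30, adjusted p = 0.131) did not pass.

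The partners and paralogs of the members were followed as lists. For scale, 1.86% of all genes rose and 3.51% fell in KO cells outside every gate, and 27.1% and 26.2% in G2/M cells. Of 15 deadenylation genes (CCR4-NOT and PAN2-PAN3 subunits, poly(A)-binding proteins and Prmt1), 1 rose in KO cells outside every gate (Pabpc4, a poly(A)-binding protein, 1.01 ± 0.17, adjusted p = 0.0285) and 0 fell, with a median of 0.18 against 0.00 over all genes. In G2/M cells 8 rose and 2 fell, with a median of 0.17 against -0.04. Prmt1 rose by 0.97 ± 0.10 (adjusted p = 1.26e-05) there, where its partners Btg1 and Btg2 fell. Of the paralogs, 2 of 4 were tested. Ypel2 was at 9.11 and 6.92 CPM in control and 4.21 and 3.36 CPM in KO cells outside every gate (-1.08 ± 0.21, adjusted p = 0.0387), and Ypel1 at -0.53 did not pass. Both fell in G2/M cells, Ypel2 by 0.72 and Ypel1 by 0.66 on the log2 scale, and Ypel2 rose in stem-like cells (0.94 ± 0.20, adjusted p = 6.7e-04).

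Lists of quiescence genes and of immediate early genes, which serum and cytokines induce within minutes, had the same contrasts side by side. The lists were chosen with earlier results of these data known, so their counts are a description. Among all genes tested, 27.1% rose and 26.2% fell in G2/M cells, and 1.86% and 3.51% in KO cells outside every gate. The shares were 21.1% and 17.0% in stem-like cells and 25.1% and 28.1% in neutrophil-like cells. Of 18 quiescence and FoxO target genes, 15 fell and 1 rose in G2/M cells, with a median of -1.01. The falling genes included Klf2, a zinc-finger factor that keeps lymphocytes quiescent (-2.37 ± 0.24), and Txnip, a thioredoxin inhibitor (-1.36 ± 0.15), and the gene that rose was the CDK inhibitor Cdkn2c (1.38 ± 0.21). In stem-like cells 12 of 17 tested rose and 1 fell (median 0.51 against 0.04 over all genes), and in neutrophil-like cells 0 rose and 15 fell (median -0.96). In KO cells outside every gate 1 rose and 9 fell (median -0.88), with Klf2 at 128 and 97.8 CPM in control and 31.1 and 48.1 CPM in KO. Of 17 immediate early genes, 0 rose and 16 fell in G2/M cells (median -1.41), 13 of 15 rose and 1 fell in stem-like cells, and 0 rose and 14 fell in KO cells outside every gate (median -1.59). Egr1, a zinc-finger factor of this list, was at 326 and 400 CPM in control and 53.9 and 60.5 CPM in KO. Of 18 p53 targets, 4 rose and 1 fell in KO cells outside every gate (median 0.58). Pmaip1 (Noxa), which promotes cell death, was at 2.17 and 2.27 CPM in control and 6.53 and 6.81 CPM in KO (1.63 ± 0.21, adjusted p = 0.0159). Single p53 targets went either way, and a part of p53 in the KO values of Ypel3 and Btg2 was not tested.

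**Figure D4:**
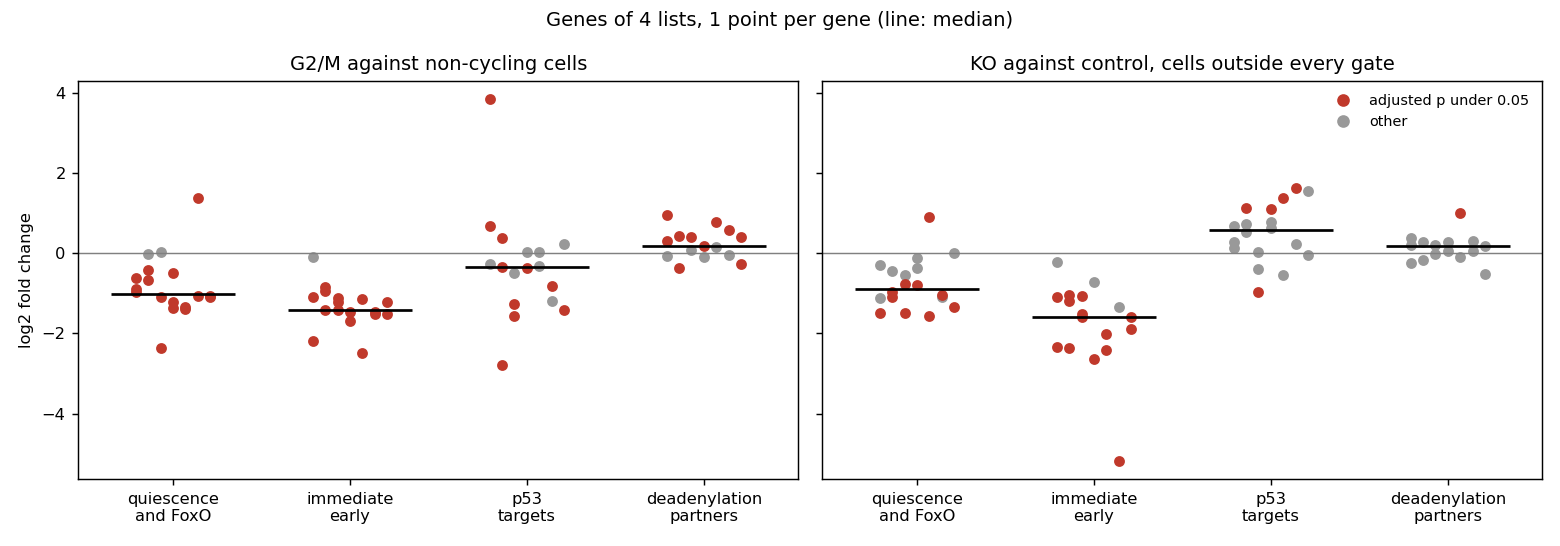
Log2 fold change (y axis) of each gene of 4 lists, 1 point per gene with a line at the median, in the KO contrast and in the cycle contrast. Immediate early genes had medians of -1.59 in KO cells outside every gate and -1.41 in G2/M cells, and deadenylation genes had medians of 0.18 and 0.17.

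Log2 CPM over 26 sums of a library and a type was centred on the mean of each library. Shifts of a whole library, and so its mean KO difference, do not enter these values. Ypel3 correlated with Btg1 (Pearson r = 0.75) and Btg2 (r = 0.66), and Btg1 with Btg2 (r = 0.63). Tob2 followed less, with r = 0.42 for Ypel3, 0.38 for Btg1 and 0.07 for Btg2. Ypel5, Btg3 and Tob1 were too low to be included. Sums of the same library share its depth and genotype, so this is a description. Among 5994 genes, those with the pattern most like that of Ypel3 were Baz2b (r = 0.94), Klhl24, Cox7a2l and Cnot6l (r = 0.93 each) and Msi2 (r = 0.92). For Btg2 they were Fam208a (r = 0.92), Tra2a, Madd, Ptk2b and Ncoa2 (r = 0.90 each), and for Btg1 Zmynd8 (r = 0.88), Tnrc6c, Jmjd1c, Clk1 and Ogt (r = 0.87 each). Cnot6l, one of the catalytic deadenylases of CCR4-NOT, was thus among the 5 genes nearest to Ypel3.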

How the data were processed

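Live LSK cells were sorted, and 10x 3′ libraries were counted by the authors with Cell Ranger 3.1 (submitters' processing notes) against GRCm38. The deposited matrices hold raw UMI counts per gene and barcode, without normalization. No removal of doublets is stated by the authors, and no doublet caller was run here. A cell that met the thresholds of several gates went to the gate with the highest score relative to its threshold. Where that score was under 2 times the next, the cell was called mixed. Mixed cells entered only the sums that do not separate types, over all LSK cells and by cycle state.

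Barcodes with under 200 genes or over 10% mitochondrial UMIs were left out, as were copied barcodes (the same sequence elsewhere with 3 times the UMIs or more). A gate needed at least 3 markers and a threshold on their summed share of UMIs. UMIs were summed per library and group and tested with edgeR 4.0.16 in R 4.3.3 (TMM, filterByExpr, quasi-likelihood, Benjamini-Hochberg 0.05 over all genes tested), with library as a factor within libraries. The fits were run on simulated counts with known fold changes, drawn from a common profile without library or type differences. Those runs therefore do not test how the library factor handles such differences. Sums were made with Python 3.11.15, numpy 2.4.6 and scipy 1.17.1. Alternatives were DESeq2 1.42.0, no filter, all barcodes, stricter gates, thinning, a replicate block and leaving out each library. Restrictions to cells of at least 5000 UMIs or to 1 genotype were added after seeing the data.

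The members, lists and tests were chosen with earlier results of these data known. Named genes were the 7 members, at most 4 examples per list by absolute log2 fold change, paralogs, and the 5 nearest patterns of Ypel3, Btg1 and Btg2. Egr1, Prmt1, Pabpc4, Txnip and Klf2 were named within this rule. Values after ± are standard errors from the edgeR fits and cover the spread between sums as well as counting error. Replicate numbers share no stated origin, so they were used to name the libraries and not to pair them, except in the replicate block. Promoter sequences are from RefSeq, GRCm38.p6.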

Additional observations from a re-analysis of the deposited data

How the results depend on the processing

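No KO value of a member changed sign over all LSK cells or outside every gate, while the number of genes called moved widely. Over all LSK cells 474 genes were called, against 946 with DESeq2, 1933 with no filter, 122 in cells of at least 5000 UMIs and 372 to 2890 with 1 library left out. Outside every gate 699 were called, against 2345 with no filter, 63 in cells of at least 5000 UMIs and 127 to 3224 with 1 library left out. With all barcodes Ypel3 was -1.49 over all LSK cells, and Ypel3 -1.77, Btg2 -1.66 and Ypel5 -0.67 outside every gate, where Ypel3 was -2.02 in cells of at least 5000 UMIs. With 1 library left out, log2 values over all LSK cells ran from -1.92 to -1.59 (Ypel3), -2.02 to -1.17 (Btg2), -1.06 to -0.15 (Btg1), -0.93 to -0.49 (Ypel5) and -0.52 to -0.0086 (Tob1), and outside every gate from -2.20 to -2.07, -2.34 to -1.60, -1.24 to -0.61, -1.0 to -0.67 and -0.54 to -0.12. The lowest sizes of Btg2, Btg1, Ypel5 and Tob1 came without control replicate 2. Same-numbered libraries did not deviate together (correlation -0.06 over all LSK cells and -0.07 outside every gate). With 2 libraries per genotype of unequal depth, this cannot exclude a pairing. The replicate block gave 1257 calls over all LSK cells and 763 outside every gate. With S and G2/M cells left out, calls were 3353 of a main 5344 (neutrophil-like), 1926 of 3824 (stem-like) and 351 of 1358 (lymphoid-primed-like). Stricter gates gave 902 megakaryocyte-like calls in place of 1681, and thinning gave 1949 and 2245 calls in S and G2/M cells in place of 6557 and 6769. With 1 library left out, calls ran from 1643 to 3114 (erythroid-like), 811 to 1110 (lymphoid-primed-like) and 1089 to 1408 (megakaryocyte-like). Values that changed sign all missed the threshold. With 1 library left out they ran from -0.086 to 0.14 (Tob2, stem-like), -0.18 to 0.059, -0.22 to 0.30, -0.23 to 0.25 and -0.034 to 0.16 (Btg2, Btg3, Tob1 and Tob2, lymphoid-primed-like), -0.29 to 0.39 (Btg3, megakaryocyte-like), -0.043 to 0.37 and -0.46 to 0.096 (Btg1 and Tob2, erythroid-like) and -0.24 to 0.032 (Tob2, G2/M). With S and G2/M cells left out they were Btg3 in neutrophil-like (-0.019), Tob2 in stem-like (-0.21), and Tob1 (0.48) and Tob2 (-0.14) in lymphoid-primed-like cells. With all barcodes they were Btg2 (0.064) and Tob1 (0.080) in lymphoid-primed-like cells, and with stricter gates Tob2 in stem-like (-0.016), Tob1 in megakaryocyte-like (0.048) and Btg1 in erythroid-like cells (-0.16). Tob2 was -0.025 in stem-like cells with no filter, and 0.29 in S and 0.23 in G2/M cells of the KO libraries alone. The cause was not tested. Thinned sums outside neutrophil-like cells, and megakaryocyte-like and erythroid-like sums without S and G2/M cells, were not run for want of cells. Of the tests of members under alternatives, 423 kept their direction and side of the threshold, 12 newly passed, 15 no longer passed and 24 changed sign.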
